A study of Homo sapiens with 6 samples.

Results

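A set of 154 genes was identified whose RNA was at least 2-fold lower at 8 h than at 0 h after irradiation and at least 2-fold higher again at 24 h, in both the esophageal squamous cancer line KY170 and its radioresistant derivative KY170R. The genes were represented by 167 probes out of 27578 that carried 1 gene symbol (18665 genes), on an array of 48803 probes. Members were chosen by these same changes, after values below the background limit of 24.533 had been raised to it, so the dip and the recovery are described here without a test. Genes fixed by name in the rule were left out, mostly stress-induced and inflammatory genes, but also SPC25 and all genes starting with AKR (aldo-keto reductases). This removed 5 further probes with the pattern (CXCL8 with a pair of probes, IL1B, TRIB3 and GDF15). A further 17 probes showed the pattern but had no single symbol. Only 9445 probes (7716 genes) were bright enough at 0 and 24 h in both lines to be able to meet the rule, and the 167 members were 1.77% of these.

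KY170 (kyse170 in the labels) is described in the paper as sensitive to radiation. KY170R was derived from it by continuous fractionated irradiation and is described as a clone, so it stands for 1 resistant derivative. Cells of both lines were collected at 0, 8 and 24 h after X-ray irradiation and their RNA was hybridized to Illumina Human-6 V3 arrays, 1 array for each line at each time (6 arrays in all). The sources used here give no radiation dose for the arrays, and unirradiated cells kept for 8 or 24 h were not analysed here, so that effects of irradiation and of time in culture cannot be told apart. It is also not given whether the 0 h cells had just been irradiated or had not been irradiated.

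Ionizing radiation breaks DNA, halts the cell cycle and changes transcription in waves over the following hours and days. The level of a messenger RNA at any hour is the balance of its synthesis and its decay, and an array reads only that balance. In squamous epithelium, genes of cell junctions, keratins, growth factor receptors and secreted proteases are part of the normal repertoire of the tissue, and their levels follow cell density, differentiation and stress signals.

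Deposited intensities had been background-subtracted and scaled between arrays, with array medians of 6.46 to 6.47 and 32.3% of probes above the limit on every array, so a change in total RNA would not be visible. Pearson's r across probes (floored log2 values) was 0.943 to 0.962 between a 0 h array and a later one, and 0.985 to 0.990 between KY170 and KY170R at matched times. Of 8 squamous epithelial marker genes on the array, 7 were above the limit on all 6 arrays. None of 7 fibroblast and none of 5 endothelial markers were above it on all arrays, and 1 of 6 immune markers was. The summed intensity of the squamous markers ranged from 19546 to 33271, and that of the fibroblast, endothelial and immune markers stayed between 21.4 and 230.2. EPCAM gave from 6678 (KY170R at 0 h) to 14720 (KY170 at 24 h) of the squamous sum. The keratins added little to it, with KRT5 between 68.3 (KY170R at 24 h) and 484 (KY170 at 8 and 24 h). KRT14 was the squamous marker not above the limit on all arrays, and was above it on 4. The squamous sum is thus mostly a reading of markers other than keratins.

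The median member was 4.67-fold lower at 8 h than at 0 h in KY170 and 3.92-fold lower in KY170R. Between 8 and 24 h the median member came back by 2.76-fold in KY170 and by 3.37-fold in KY170R. The falls ranged from 1.04 to 4.33 on the log2 scale in KY170 and from 1.0 to 4.19 in KY170R. Over the 9445 probes that could meet the rule, the median log2 fall was 0.05 in KY170 and 0.04 in KY170R, and the median rise was -0.01 in both. At 8 h, 26 member probes were under the limit in both lines, 23 in KY170 alone, 3 in KY170R alone and 115 in neither, so the changes of 52 probes are lower bounds in at least 1 line. The rule sets the direction of these values, and nothing is drawn from them beyond their size. In RNA from whole cultures, fewer cells with a transcript and less of it per cell cannot be told apart.

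**Figure D1:**
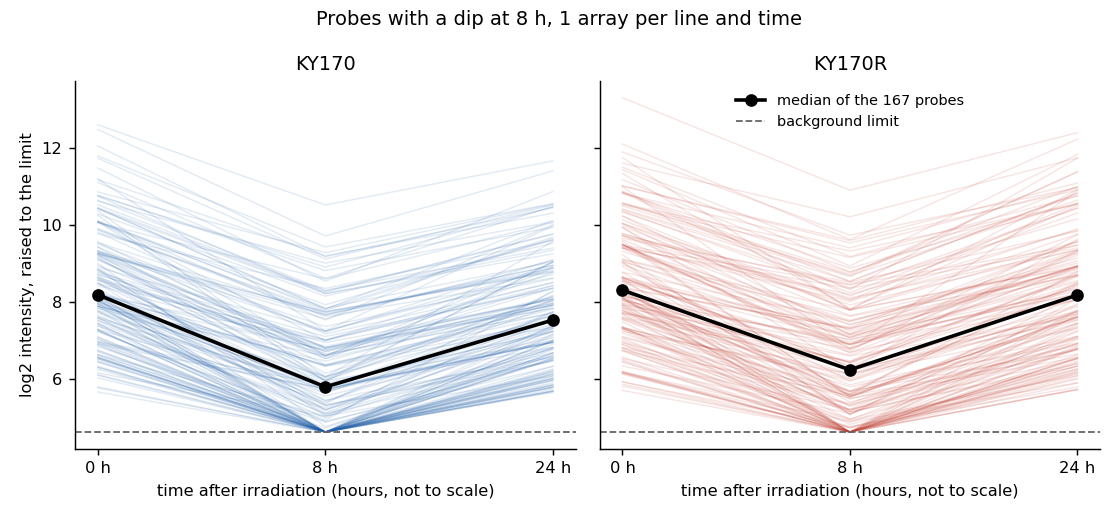
Log2 intensity (vertical axis, raised to the background limit) of the 167 member probes at 0, 8 and 24 h, 1 thin line a probe, for KY170 (left) and KY170R (right). The thick line joins the medians over probes, and the dashed line is the limit of 24.533. Many lines touch the limit at 8 h, more of them in KY170, and the median returns closer to its start in KY170R.

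Genes with the deepest falls included an epithelial transcription factor, a membrane protease and a signalling adaptor. YPEL3, a small zinc-binding protein linked to growth arrest and senescence, read 512, 27.1 and 97.2 in KY170 at 0, 8 and 24 h, and 733, 46.6 and 219 in KY170R (probe ILMN_1791147). Its 8 h level in KY170 lay just above the limit, 18.9-fold below 0 h, and the fall in KY170R was 15.7-fold. Only part of the fall was regained by 24 h, since both lines were still 2.40 and 1.74 below their 0 h values on the log2 scale. ELF3, an ETS transcription factor of epithelial cells, read 2342, 152 and 1002 in KY170, against 2038, 112 and 1891 in KY170R (ILMN_1769201). Both lines began and dipped at similar levels, and KY170R came back to within 0.11 of its start on the log2 scale while KY170 stayed 1.22 below. PRSS8 (prostasin), a serine protease anchored at the epithelial surface, fell 20.1-fold in KY170 (from 1219.6 to 60.7, then 529) and 7.36-fold in KY170R (from 1049 to 143, then 772).

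The windows before the annotated starts of 4 members are shown, for YPEL3 and ELF3, which had the largest mean falls over both lines, and for a pair that also differed between the lines (ID1 and ULK1). They are the 250 bases before the start from RefSeq (build GRCh38.p14), written 5′ to 3′ on the gene's strand. Capitals mark exact matches on either strand to 8 short motifs, which may overlap. The motifs searched were the classical TATA motif spelled TATAAA, the CCAAT box, the GC box spelled GGGCGG and the octamer spelled ATTTGCAT. The others were the E-box spelled CACGTG, the cyclic AMP response element (CRE) spelled TGACGTCA, the AP-1 site spelled TGACTCA and the NRF1 site spelled GCGCATGC.
YPEL3 (chr16:30096214-30096463, minus strand): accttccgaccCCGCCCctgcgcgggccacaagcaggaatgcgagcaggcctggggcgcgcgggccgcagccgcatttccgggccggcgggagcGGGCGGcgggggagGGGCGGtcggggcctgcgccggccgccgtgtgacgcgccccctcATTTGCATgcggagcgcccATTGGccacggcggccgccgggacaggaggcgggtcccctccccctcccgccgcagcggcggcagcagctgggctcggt
ELF3 (chr1:202010337-202010586, plus strand): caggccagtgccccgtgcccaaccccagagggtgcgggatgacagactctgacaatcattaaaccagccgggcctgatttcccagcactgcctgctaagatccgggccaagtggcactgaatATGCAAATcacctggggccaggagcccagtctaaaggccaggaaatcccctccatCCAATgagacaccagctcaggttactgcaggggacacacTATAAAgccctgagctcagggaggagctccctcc
ID1 (chr20:31605039-31605288, plus strand): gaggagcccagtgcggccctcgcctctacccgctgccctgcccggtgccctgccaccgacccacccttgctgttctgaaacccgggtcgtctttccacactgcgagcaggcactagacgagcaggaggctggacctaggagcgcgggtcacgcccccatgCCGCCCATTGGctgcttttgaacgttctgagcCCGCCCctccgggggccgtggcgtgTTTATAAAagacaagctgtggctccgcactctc
ULK1 (chr12:131894372-131894621, plus strand): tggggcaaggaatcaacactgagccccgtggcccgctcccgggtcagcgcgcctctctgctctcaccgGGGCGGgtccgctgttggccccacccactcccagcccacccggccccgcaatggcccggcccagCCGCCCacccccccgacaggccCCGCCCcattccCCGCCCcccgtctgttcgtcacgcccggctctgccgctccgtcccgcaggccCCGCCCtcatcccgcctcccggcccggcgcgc
ELF3 and ID1 carried TATA boxes 34 and 31 bases before the start, YPEL3 and ELF3 an octamer each, and YPEL3, ELF3 and ID1 a CCAAT box. ULK1 carried GC boxes and none of the other motifs. Windows were available for 120 of the 154 genes and for 6451 genes that could meet the rule, members included. In 93 of the 120 the window ended at the start of the annotated gene span, as in the 4 shown, and in 27 it did not. A GC box was in 76.7% of member windows against 69.5% of those 6451 windows, a CCAAT box in 40.0% against 36.6%, and a TATA box in 6.67% against 5.05%. AP-1 matches were in 5.0% against 2.57%, E-box matches in 7.5% against 9.70%, CRE matches in 2.5% against 3.29%, NRF1 matches in 3.33% against 5.26% and octamers in 2.5% against 1.29%. Over all 27305 promoter windows the shares were 42.3% for GC boxes, 33.0% for CCAAT boxes, 11.1% for TATA boxes, 4.16% for AP-1, 6.49% for E-boxes, 1.77% for CRE, 2.81% for NRF1 and 1.66% for octamers. Median GC content of the windows was 69.0% in members and 65.2% in genes that could meet the rule. No test was made of these shares, and a match in a window is a description of its letters.

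Several further genes with deep falls act in cell polarity, signalling or cell death. GRB7, an adaptor that binds receptor tyrosine kinases such as ERBB2, read 1319, 66.0 and 761 in KY170, against 2584, 227 and 1444 in KY170R by its probe ILMN_2405254. A second GRB7 probe was under the limit at 8 h in KY170, a fall of at least 14.7-fold there and of 16.6-fold in KY170R. Both probes are members, so the rule fixed their dip. The GRB7 probe outside the set was dim, with 33.3, -0.35 and 4.43 in KY170, against 64.0, 3.16 and 57.4 in KY170R. SIPA1, an activator of Rap GTPase hydrolysis, fell 11-fold in KY170 (1071, 97.3 and 242) and 13-fold in KY170R (977, 75.1 and 791). Its recovery differed in size, with 2.49-fold in KY170 and 10.5-fold in KY170R. HRK, a BH3-only protein that promotes apoptosis, read 214, 7.94 and 54.9 in KY170, against 389, 16.2 and 87.9 in KY170R. Its 8 h values lay under the limit in both lines, and its 24 h values were 1.96 and 2.14 below 0 h on the log2 scale.

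PARD6A, a scaffold of the PAR polarity complex, was likewise under the limit at 8 h in both lines. Its falls were at least 9.65-fold in KY170 and 10.9-fold in KY170R. GRAMD1A, a protein that moves cholesterol between membranes, fell at least 10.9-fold and 11.2-fold, and HS1BP3, a partner of the haematopoietic protein HS1, at least 8.95-fold and 11.3-fold. LRRC20, whose pair of member probes fell by 9.71-fold or more, and SLC25A42, a mitochondrial carrier for coenzyme A, belonged to the same end of the range. DHRS3, a retinaldehyde reductase, read 4226, 577 and 1392 in KY170, against 3431, 222 and 1937 in KY170R. The DHRS3 dip was 7.32-fold in KY170 and 15.5-fold in KY170R, one of the members with the deeper fall in KY170R. Over all members, the fall was deeper in KY170 for 100 probes and in KY170R for 67.

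**Figure D2:**
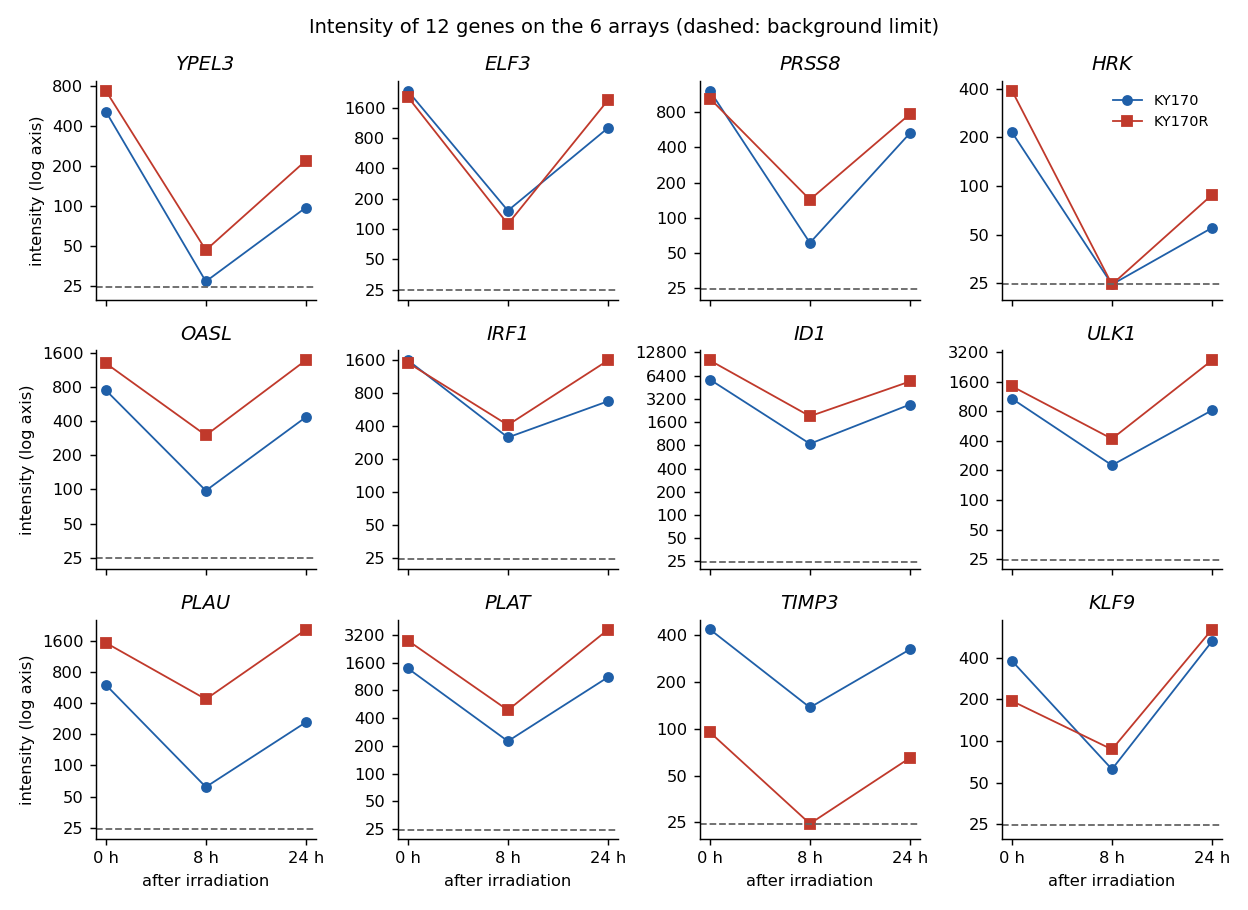
Intensity (vertical log axis) at 0, 8 and 24 h of 12 member genes, by 1 probe each, in KY170 (blue circles) and KY170R (red squares), 1 array a point. Values under the background limit (dashed line, 24.533) are drawn at it. ELF3 starts and dips at similar levels in both lines, PLAU and PLAT are higher in KY170R at all 3 times, and TIMP3 is lower there.

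Members made up 154 of the 7716 genes that could meet the rule (2.0%), and each count from a gene list is to be read beside that share. No list was tested. Genes left out by name stayed among those that could meet the rule. A list holding such genes can thus have more with the pattern than members. Of 11 tight junction and polarity genes that could meet the rule, 2 were members (CGN and CLDN23), and of 18 genes of basal epithelium and adhesion, 1 was (KRT15). None of 9 squamous differentiation genes were members. CLDN23, a claudin of the tight junction, fell 8.38-fold in KY170 (306, 36.6 and 142) and 3.65-fold in KY170R (376, 103 and 266). CGN (cingulin), which links tight junctions to the cytoskeleton, fell 2.67-fold in KY170 (871, 326 and 771) and 3.18-fold in KY170R (873, 274 and 651). The dip of CGN was shallow, and it regained most of its level in both lines. KRT15, a keratin of basal cells, read 3535, 687 and 1499 in KY170, against 2310.4, 438 and 1729.9 in KY170R.

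Of 15 genes of the EGFR family, its ligands and feedback that could meet the rule, 2 were members (ERBB3 and ETV5). ERBB3, a receptor of the EGFR family that pairs with ERBB2, read 355, 129 and 365 in KY170, against 362, 129 and 365 in KY170R (ILMN_1751346). The lines read nearly the same at every time point. ETV5, an ETS factor induced by FGF and ERK signalling, read 1082, 185 and 1026 in KY170, against 873, 263 and 1503 in KY170R. FGFR3, a fibroblast growth factor receptor named here after its values were seen, read 1086, 243 and 782 in KY170, against 1288, 330.0 and 1383 in KY170R.

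Of 21 interferon-response genes that could meet the rule, 4 were members (IRF1, MX1, OAS1 and OASL), which is 19.0%, beside 2.0% of all genes. The list's median log2 change was -0.70 from 0 to 8 h and 0.32 from 8 to 24 h, and the median over all genes was -0.03 and 0.01. IRF1, a transcription factor that activates interferon-response genes, read 1598, 315 and 675 in KY170, against 1516, 409.5 and 1592 in KY170R. By 24 h it was back at its start in KY170R, at a log2 change of 0.07, and 1.24 below it in KY170. OASL, an antiviral protein of the oligoadenylate synthetase family, read 753, 97.6 and 436 in KY170, against 1305, 302 and 1387 in KY170R (ILMN_1674811). OAS1, its enzyme relative that activates RNase L, fell 3.0-fold in KY170 and 2.41-fold in KY170R. MX1, a GTPase that blocks virus replication, was close to background, with 91.8, 15.4 and 58.0 in KY170, against 86.6, 24.6 and 53.1 in KY170R. OASL was thus well above the limit at 8 h by this probe, and MX1 was not.

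BCL3, a nuclear cofactor of NF-kB, and TNFAIP2, a gene induced by tumour necrosis factor, were the members among 17 NF-kB and inflammatory genes that could meet the rule. CXCL8, also in this list, showed the pattern but was left out by name. BCL3 read 591, 110.3 and 248 in KY170, against 1001, 199.6 and 513 in KY170R, and TNFAIP2 fell 4.13-fold and 5.08-fold. ID1, an inhibitor of basic helix-loop-helix factors that BMP signalling induces, and HEY1, a repressor downstream of Notch, were the members among 15 BMP and TGF-beta response genes. ID1 read 5696, 837 and 2702 in KY170, against 10087, 1909 and 5382 in KY170R (ILMN_1664861), and its second probe gave falls of 10.2-fold and 8.92-fold. DTX2, a Deltex ubiquitin ligase of the Notch pathway, read 1852, 620.1 and 1488 in KY170, against 3111, 1183 and 3409 in KY170R. For ID1 and DTX2, KY170R was the higher line on all 3 pairs of arrays.

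Both members from the autophagy list ended above their start in KY170R and below it in KY170. ULK1, the kinase that starts autophagy, read 1074, 226 and 818 in KY170, against 1437, 419.9 and 2642 in KY170R (ILMN_1705144). A second ULK1 probe gave 1099.5, 219 and 797 against 1361, 404 and 2673. GABARAPL1, a protein of the autophagosome membrane, read 607, 104 and 343 in KY170, against 499.8, 119 and 638 in KY170R. ULK1 and GABARAPL1 were the members among 20 autophagy and lysosome genes that could meet the rule. FBXO32 (atrogin-1), a ubiquitin ligase known from muscle wasting, read 2844, 372 and 1863 in KY170, against 1853, 319 and 3405 in KY170R. Its other probe fell less, by 0.40 in KY170 and 1.09 in KY170R on the log2 scale. KLF9, a transcription factor induced by glucocorticoids, read 379, 62.5 and 524 in KY170, against 194, 86.9 and 639.9 in KY170R.

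Metabolic members came from several pathways. ENO2 (an enolase), SLC2A3 (a glucose transporter) and NDRG1 (a stress gene induced by hypoxia) were the members among 28 glycolysis and hypoxia genes that could meet the rule. ENO2 fell 4.33-fold in KY170 and 4.77-fold in KY170R, and NDRG1 6.58-fold and 2.31-fold. PSPH, the last enzyme of serine synthesis, and SLC6A9, a glycine transporter, were the members among 22 ATF4 and amino acid response genes. PSPH was under the limit at 8 h in both lines and was above its start at 24 h, at 112 against 79.1 in KY170 and 130.4 against 56.2 in KY170R. ACSS2, which makes acetyl-CoA from acetate, fell 4.39-fold and 5.10-fold, and PLIN3, a lipid droplet coat protein, read 3403, 554 and 1462 in KY170, against 3798, 850.2 and 2003 in KY170R. Of 155 solute carrier genes that could meet the rule, 6 were members (3.87%).

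Lists of apoptosis regulators and of chromatin genes held 2 members each, and the G2/M list 1. CASP9, the initiator caspase of the mitochondrial pathway, joined HRK among 17 apoptosis regulators that could meet the rule, with 397, 104 and 240.4 in KY170, against 713, 110.3 and 468 in KY170R. CDC25C, a phosphatase that triggers entry into mitosis, was the member among 32 G2/M and kinetochore genes, with 463, 62.9 and 265 in KY170, against 537, 134 and 376 in KY170R (ILMN_1725260). CBX7, a Polycomb protein, and DNMT3B, a DNA methyltransferase, were the members among 16 chromatin and DNA methylation genes. CBX7 read 190.0, 34.1 and 109.8 in KY170, against 218, 30.8 and 109.6 in KY170R, so the lines were alike at all 3 times. None of 16 p53 targets, 23 genes of double-strand break repair, 27 of G1/S and DNA replication, 23 cytosolic ribosomal proteins, 26 of oxidative phosphorylation and 20 NRF2 targets were members. The overall share of 2.0% comes to less than 1 gene in a list of any of these sizes, so nothing is drawn from these counts of 0. GDF15, which showed the pattern, SESN2 and HMOX1 were left out by name and could not count as members of any list. In all, 26 member genes stood in at least 1 of the 34 lists and 128 in none.

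At 24 h the level lay below 0 h in both lines for 94 probes, above it in both for 16, below in KY170 and above in KY170R for 52, and the reverse for 5. The median level at 24 h was 0.72 below 0 h in KY170 and 0.30 below it in KY170R on the log2 scale. The median member had regained 68.2% of its log2 fall in KY170 and 84.4% in KY170R, and 110 of the 167 probes had the larger rise in KY170R. No test of this difference between the lines was made, since each value comes from the changes the rule used. Members furthest above their start were KLF9, CYBRD1 (an iron reductase), TMEM123-DT (a non-coding transcript), CDK19 (a Mediator kinase), PSPH and SLC2A12 (a glucose transporter). TMEM123-DT read 149.7, 30.2 and 312 in KY170, against 137, 48.2 and 442 in KY170R, and CDK19 read 235, 96.3 and 519.9 in KY170, against 332, 158 and 648 in KY170R. Both ended higher than they began in both lines. Members furthest below their start were YPEL3, HRK, PARD6A, HS1BP3, KBTBD3 and LRRC20, which were 1.28 to 2.40 below it on the log2 scale by every probe in both lines.

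**Figure D3:**
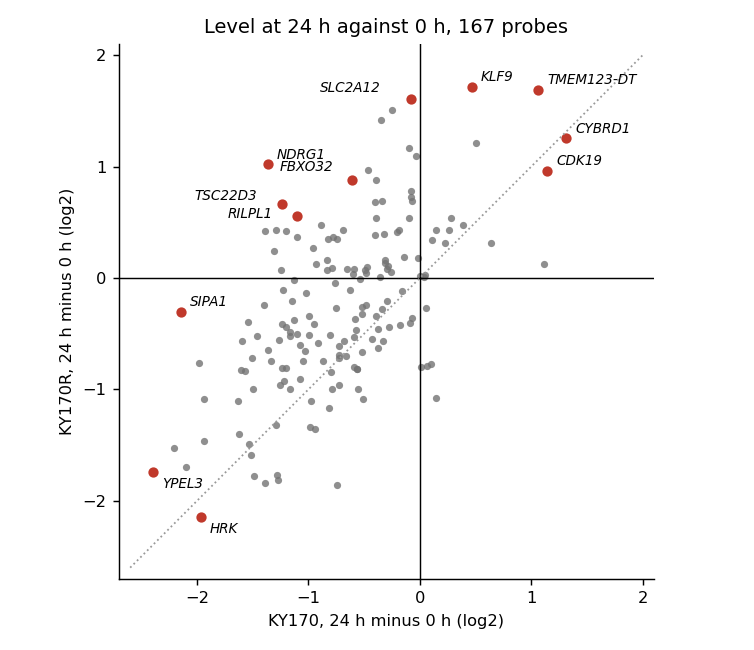
Log2 difference between 24 h and 0 h in KY170 (horizontal axis) and KY170R (vertical axis) for the 167 member probes, 1 point a probe, with 12 named in red. The dotted line marks equal values, and 126 probes lie above it. Most points lie left of zero, 94 of them below zero in KY170R as well and 52 above zero there.

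The lowest of the 4 changes was closest to the threshold of 1 on the log2 scale for CYP26B1, TMEM125 and RILPL1, and all 3 passed by less than 0.01. Just outside lay MSI2 (0.9913), NDE1 (0.9924) and CBY1 (0.9963). CBY1 read 1940.4, 662 and 1506 in KY170, against 1971, 529 and 1056 in KY170R, a dip like that of the members. The mirror pattern, at least 2-fold higher at 8 h and at least 2-fold lower again at 24 h in both lines, was met by 48 probes with 1 symbol. Falls of at least 2-fold at 8 h in both lines were met by 1489 probes and increases by 1530, so most probes that were lower at 8 h had not come back 2-fold in both lines by 24 h.

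Other probes of the same genes, which the rule did not select, gave a separate reading on the same arrays. The 154 genes had 92 other probes in 59 genes, of which 39 were never above the limit. Of the 26 that could meet the rule, 24 had a fall and a rise above 0 in both lines (92.3%), beside 1431 of all 9278 non-member probes that could (15.4%). Being able to meet the rule required brightness at 24 h, so probes that fell and stayed near background were left out of both counts. Both shares are raised by this filter. Probes of 1 gene share transcripts, so they are not independent. The median log2 fall of the 26 was 1.36 and the median rise 1.05. PSPH read 959.5, 329 and 1329 in KY170, against 715, 421 and 1812 in KY170R by its other probe, with the same end above the start. Among the 26, the exceptions were probes of ERBB3 and PARD6A. The ERBB3 probe among the 26 went on down, with 483, 251 and 116 in KY170, against 633, 232 and 93.5 in KY170R. That of PARD6A stayed low at 24 h, with 304, 110.4 and 99.8 in KY170, against 535, 123 and 132 in KY170R. For ERBB3 and PARD6A the pattern therefore depends on the probe. Probes too dim at 0 or 24 h to meet the rule were also mixed. Those of VRK3 (ILMN_2348403), ACSS2 (ILMN_1697510) and ERBB3 (ILMN_2397602) fell and did not rise again in either line. Those of CASP6 (ILMN_1659350), DOP1B (ILMN_1741711) and PARD6G (ILMN_1724877) fell and rose in both.

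**Figure D4:**
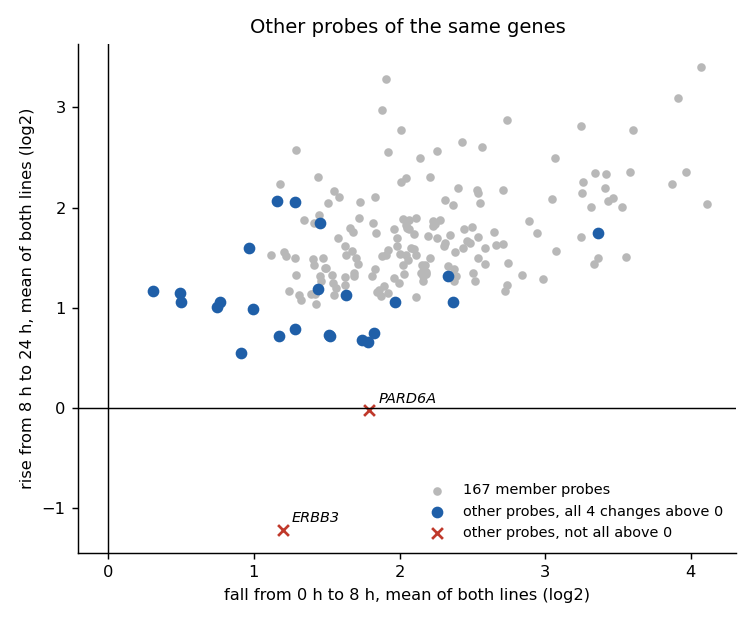
Mean log2 fall from 0 to 8 h (horizontal axis) and mean log2 rise from 8 to 24 h (vertical axis) over both lines, for the 167 member probes (grey) and the 26 other probes of the same genes that could meet the rule. Blue points (24) had all 4 changes above 0, and red crosses mark ERBB3 and PARD6A.

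The rule used the values of all 6 arrays, though not the difference between the lines at a given time. That difference was tested over all 16168 probes above the limit on at least 3 of the 6 arrays. The test was limma with time as a block and a trended, robust prior variance, two-sided, with Benjamini-Hochberg adjustment over all probes and 2 residual degrees of freedom. Of the 167 members, 21 probes (18 genes) were higher in KY170R at an adjusted p under 0.05, which is 12.6%, beside 1.86% of all tested probes. Another 4 were lower (2.40%), beside 1.65% of all. Among the other 9278 probes that could meet the rule, 1.83% were higher and 1.53% lower. Among the other 1290 tested probes that were at least 2-fold lower at 8 h in both lines, 4.88% were higher and 1.40% lower. KY170R was the higher line at all 3 times for 79 members (47.3%) and the lower for 16 (9.58%), against 19.1% and 19.7% of all tested probes. Whether the arrays stand for separate cultures is not stated, so the p-values cover only the spread among these 6 arrays, which mixes noise with any difference between the lines in time course. The rule required a fall and a rise in both lines, so the choice of members can act on that spread too. How far this moved the member shares was not tested.

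Both plasminogen activators were higher in the resistant line. PLAU (urokinase), a secreted protease that turns plasminogen into plasmin, read 598, 62.0 and 260.5 in KY170, against 1522, 436 and 2038 in KY170R. KY170R was higher at all 3 times, by a mean of 5.19-fold (log2 difference 2.38, SE 0.29, adjusted p = 0.0014 in limma). PLAT (tissue plasminogen activator) read 1383, 225 and 1108 in KY170, against 2772, 487 and 3634 in KY170R, 2.43-fold higher (SE 0.20 on the log2 scale, adjusted p = 0.0054). The smallest gap was 1.0 on the log2 scale, at 0 h. MMP28 (epilysin), a matrix metalloproteinase of epithelium, read 450.3, 36.4 and 184 in KY170, against 1201, 150.3 and 481 in KY170R. It was 3.06-fold higher (adjusted p = 0.0042) by this probe, and its second probe, with the same order of lines at all 3 times, was not called.

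TIMP3, an inhibitor of matrix metalloproteinases bound to the matrix, went the other way. It read 435, 137 and 323 in KY170, against 94.9, 1.98 and 65.0 in KY170R, where the 8 h value was under the limit. KY170 was 5.03-fold higher (log2 difference -2.33, SE 0.25, adjusted p = 7.4e-04), with every KY170 array above every KY170R array. PPM1H, a phosphatase, was 2.26-fold higher in KY170 (adjusted p = 0.042), and KISS1R, the kisspeptin receptor, 2.02-fold (adjusted p = 0.045). The other lower probe is not described here.

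OASL was the interferon-response member that was also called between the lines. It was 2.57-fold higher in KY170R by its probe ILMN_1674811 (adjusted p = 0.0085) and 2.20-fold by the other (adjusted p = 0.038). IRF1, MX1 and OAS1 were not called. Over the whole list, 8 of 25 tested interferon-response genes had a probe higher in KY170R and none a lower one, against 2.36% and 2.01% of all 10077 genes tested. SHFL, an antiviral protein induced by interferon, was 2.64-fold higher (adjusted p = 0.017), and HCP5, a non-coding gene of the HLA region, 5.05-fold (adjusted p = 0.0018). HCP5 read 137, 24.1 and 70.1 in KY170, against 401, 156 and 484 in KY170R, so the groups of arrays did not overlap. BCL3 was 1.85-fold higher (adjusted p = 0.043), and 7 of 22 tested NF-kB and inflammatory genes were higher in KY170R, with none lower. Such shares were not particular to lists with members. Of 22 tested NRF2 targets, 8 were higher, and of 17 replication-dependent histone genes, 5 were, with none lower and no members in either list.

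Transcription regulators were called higher in KY170R as well. Both ID1 probes were higher, by 2.0-fold and 2.15-fold (adjusted p = 0.0050 and 0.031), and HEY1 by 2.69-fold (adjusted p = 0.017). Both DNMT3B probes were higher, by 2.47-fold and 2.53-fold (adjusted p = 0.0063 and 0.015). DNMT3B read 286, 127 and 343 in KY170, against 691, 292 and 932 in KY170R (ILMN_1794692), with a gap of 1.20 to 1.44 on the log2 scale at each time. SOX18, a SOX factor of vessel development, was 2.82-fold higher (adjusted p = 0.038), though its gap at 8 h is a bound, because the KY170 value lay under the limit. LHX3, a LIM homeobox factor of the pituitary, and DTX2 were 2.49-fold and 1.94-fold higher (adjusted p = 0.0079 and 0.013). The LHX3 call rests on 1 probe. Its other probes were never above the limit, apart from ILMN_2390435 at 37.2 in KY170R at 0 h. GRB7 was 2.34-fold higher by 1 of its probes (adjusted p = 0.014), and ULK1 by 2.0-fold by 1 of its probes (adjusted p = 0.044). The remaining genes called higher in KY170R were SEMA4D, a membrane semaphorin, UBALD2, and MR1, which presents vitamin metabolites to T cells, at 1.87-fold to 2.18-fold. For HCP5, SHFL, SOX18, TIMP3 and the OASL probe ILMN_1681721, 1 of the 6 arrays was under the limit, and the gap at 8 h is a bound. At an unadjusted p under 0.05 stood 67 members (40.1%), beside 17.4% of all tested probes. Without the 0, 8 or 24 h arrays, 12, 8 and 20 of the 25 calls remained. None did without the time term or by the methods' t-test, which has no such term. Both put changes over time into the residual spread, and calls over all tested probes were nearly all lost as well. No conclusion is drawn from that loss. With an untrended, non-robust prior variance (plain eBayes) 12 of the 25 remained. Only 1 did when probes above the limit on at least 1 array were tested. Single calls held in 4 of 12 alternatives (BCL3, MR1 and ULK1) to 9 (such as PLAU and PLAT).

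**Figure D5:**
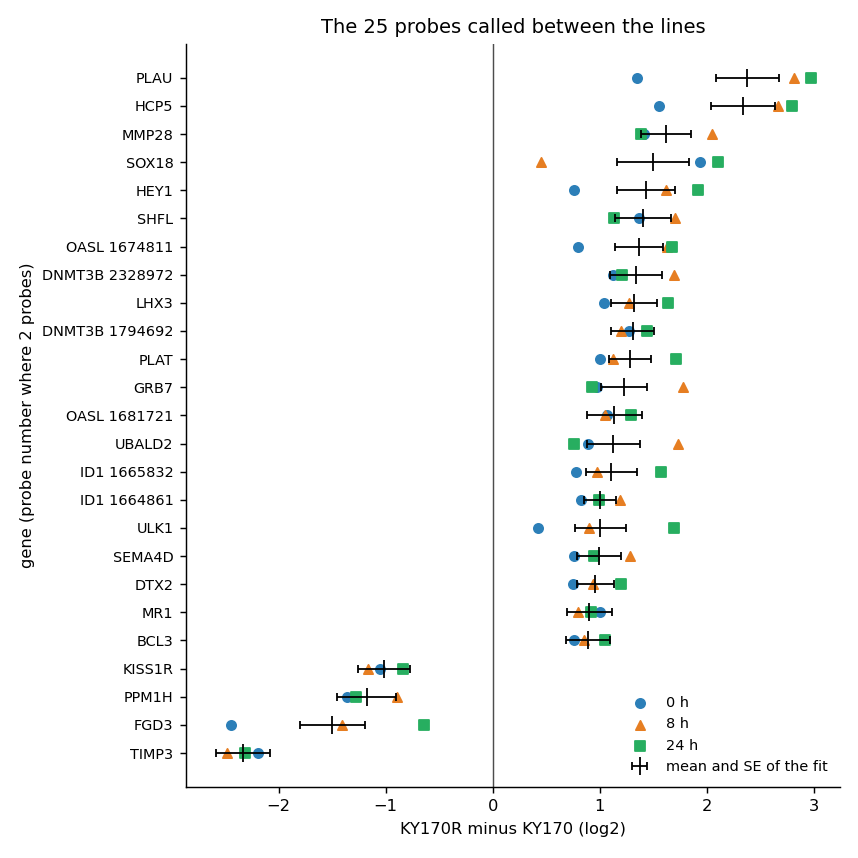
Log2 difference KY170R minus KY170 for the 25 member probes called between the lines. Points give the difference at 0 h (circle), 8 h (triangle) and 24 h (square), and the black bar the mean with the standard error of the limma fit. All 3 points of each probe lie on the same side of zero, 21 probes to the right and 4 to the left.

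Genes of the set lay on most chromosomes. Of genes that could meet the rule, the highest share was on chromosome 12 (16 of 429, 3.73%), beside 2.0% over all. The lowest was on chromosome 13 (0 of 111). These shares were not tested, and whether members lie close together was not examined. Of the 154 genes, 149 were protein coding. The median gene span was 29181 bases in members and 27352 bases in genes that could meet the rule, and the quartiles were 11295 and 62768 bases against 10924 and 63446 bases. A pair or more of member probes was present in 13 genes.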

How the data were processed

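The authors measured RNA on Illumina Human-6 V3 arrays and processed it with BeadStudio (its version, the normalization and any filter are not given in the sources used). Deposited intensities are linear, already background-subtracted (29.9% below 0 on each array) and normalized between arrays. Profiling was stated to be in triplicate, and whether a column pools repeats is not given. The number of arrays, 1 per line and time, limits the precision.

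Values were raised to a background limit, the size of the lowest value on any array (24.533), and turned into log2. Values at the limit give lower bounds. Gene names came from the platform annotation (1 symbol for 27578 probes, several for 13, none for 21212), updated through RefSeq GRCh38.p14 (27541 matched). The members and lists were chosen with earlier results of these data known. Lines were compared with limma 3.58.1 in R 4.3.3 (lmFit and eBayes, trended and robust), and members were counted in Python 3.11.15. The fit was tested on simulated data. A gene was named if it was among the 15 largest falls, the 8 highest mean intensities, the 6 furthest above or below 0 h at 24 h or the 10 largest called line differences, had more than 1 member probe, stood in a list or lay next to the threshold. Other genes were named after their values were seen. Alternatives were other floors, normalizations, filters, thresholds, prior variances, no time term, the methods' t-test and leaving out each time point. No comparison columns of the authors were used. Some members named by this rule are not reported here.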

Additional observations from a re-analysis of the deposited data

Results flagged for a closer look

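In 4 member genes the arrays of both lines ended on opposite sides of their 0 h value at 24 h, by at least 0.5 on the log2 scale in each line, with 1 array a point. The difference was not tested. FBXO32, a ubiquitin ligase of muscle wasting, changed by -0.61 from 0 to 24 h in KY170 and by 0.88 in KY170R by its member probe ILMN_1703955. Its other probe (ILMN_1652280) read 844, 640 and 713 in KY170, against 609, 287 and 1039.5 in KY170R. By that probe FBXO32 dipped little in KY170, and its 24 h value there lay closer to the start. TSC22D3, a leucine zipper protein induced by glucocorticoids, changed by -1.24 in KY170 and by 0.67 in KY170R by its probe ILMN_1748124, and its second member probe by -0.07 and 0.69. NDRG1, a stress gene, changed by -1.36 in KY170 and by 1.02 in KY170R. RILPL1, a regulator of cilia, changed by -1.11 in KY170 and by 0.55 in KY170R, and lay near the threshold of the rule.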

How the results depend on the processing

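The 167 member probes became 494 with a floor of 1, 108 with a floor of 2 times the limit, 41 and 11 with changes of at least 1.5 and 2 on the log2 scale, 378 by KY170 alone and 466 by KY170R alone. Quantile normalization gave 167 and median centring 168. The median change of the members from 0 to 8 h moved from -2.11 to -1.90 with a floor of 2 times the limit. In no alternative did a named change or line difference turn its direction. Of 25 member probes called between the lines (21 higher, 4 lower), 12 were called with plain eBayes, 1 (a lower one) with probes above the limit on at least 1 array, and 0 without the time term or by the methods' t-test (3 and 1 of 167 at an unadjusted p under 0.05). Dropping the time term, as the t-test also does, puts the changes over time that the rule required into the residual spread. Leaving out the 0, 8 or 24 h arrays gave 12, 8 and 32 called members. Of all tested probes, 567 were called, 234 with plain eBayes, 32 with the at-least-1-array filter, 2 without the time term, 6 by the t-test and 232, 202 and 1203 without the 0, 8 and 24 h arrays. The causes were not tested. No paired analysis by replicate number was possible because each line and time has 1 array. Values near the limit are set by background, which bounds the falls.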
